A study of Mus musculus with 30 samples.

Results

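The core of Polycomb repressive complex 2 (PRC2) was read in the deposited expression table as the rows of 6 genes, Eed, Suz12, Ezh1, Ezh2, Rbbp4 and Rbbp7, chosen by name as the subunits of the complex, out of 20563 genes in all. All 6 had a row, and all 6 were read in all 30 libraries. PRC2 is the enzyme that methylates histone H3 on lysine 27, the mark of silenced developmental genes in embryonic stem cells. Ezh1 and Ezh2 are its alternative methyltransferases, Eed binds the methylated product and stimulates the enzyme, and Suz12 is the scaffold on which the core and its accessory subunits assemble. Rbbp4 and Rbbp7 are closely related histone chaperones that also serve the NuRD, Sin3, CAF-1 and NURF complexes.

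The libraries came from mouse embryonic stem cells held undifferentiated on gelatin with the cytokine LIF (day 0) and from embryoid bodies, differentiating aggregates made without LIF, after 4 and 8 days. There were 5 lines: Pali wild type, Pali1-/-, Pali1-/- Pali2-/- (the double knockout), C129 wild type and the Aebp2gt/gt gene trap, with 2 libraries for each line and day. PALI1 is made from the Lcor locus and PALI2 from Lcorl, and both are accessory partners of PRC2, as is AEBP2, so the mutants lack partners of the complex and none of its core genes. Pali wild type was the control of both Pali mutants, and C129 wild type was taken as that of the trap, which the labels do not state outright. The duplicates are biological, but clones are not named, so a p-value reflects the spread between cultures of the same line. An adjusted p is that of limma across 15712 tested genes, and a gene was called where it lay below 0.05. Fold changes are on the log2(value + 4) scale.

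Aebp2 lay between 17.1 and 66.4 normalised counts in the 6 trap libraries and between 1232 and 2784 in the other 24. Lcor (57.0 to 133 in the 12 Pali mutant libraries, 41.4 to 128.7 in the other 18) was not called in any Pali mutant comparison. Neither was Lcorl, which lay between 517 and 641 in the double knockout, the line that lacks PALI2, and between 294 and 858 in the other lines. These gene totals thus do not check the Pali labels. Library totals ran from 15470082 to 18336791 normalised counts, an estimated 13198297 to 28151943 reads. For the double knockout, the GEO descriptions of replicate 1 are crossed between day 0 and day 4, each naming the culture state of the other. Titles were followed. The summed level of 12 pluripotency markers was 94706 in the library titled day 0 and 37226 in the one titled day 4. In the other libraries it was 90244 or more at day 0 and 75696 or less later. The double knockout results named for Eed, Suz12 and Rbbp7 at these days are also given without both libraries.

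The promoters of 3 members are shown because their RNAs followed different courses: Eed fell in every line, Suz12 differed between lines, and Rbbp4 stayed within a narrow range. Each sequence is the 250 bases before the start of the gene in RefSeq on GRCm38.p6, read 5′ to 3′ on the strand of the gene. Capitals mark TTTCCCGC (a sequence bound by E2F factors), GGGCGG (the GC box) and CCAAT (the CCAAT box), searched on both strands, so that CCGCCC and ATTGG are also capitals. TTTGGCGC, another E2F sequence, was searched in the same way and found in none of the 6 members.
Eed, chr7:89980977-89981226, minus strand: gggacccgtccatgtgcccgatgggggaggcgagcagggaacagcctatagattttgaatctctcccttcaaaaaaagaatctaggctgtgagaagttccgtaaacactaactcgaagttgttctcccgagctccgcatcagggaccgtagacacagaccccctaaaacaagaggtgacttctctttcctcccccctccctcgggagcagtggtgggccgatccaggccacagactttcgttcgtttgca
Suz12, chr11:79992856-79993105, plus strand: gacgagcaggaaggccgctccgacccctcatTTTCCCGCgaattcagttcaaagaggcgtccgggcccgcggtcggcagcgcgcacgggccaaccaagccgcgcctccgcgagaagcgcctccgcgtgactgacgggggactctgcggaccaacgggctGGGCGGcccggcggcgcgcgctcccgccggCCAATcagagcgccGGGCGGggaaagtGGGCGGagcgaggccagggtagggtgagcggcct
Rbbp4, chr4:129335371-129335620, minus strand: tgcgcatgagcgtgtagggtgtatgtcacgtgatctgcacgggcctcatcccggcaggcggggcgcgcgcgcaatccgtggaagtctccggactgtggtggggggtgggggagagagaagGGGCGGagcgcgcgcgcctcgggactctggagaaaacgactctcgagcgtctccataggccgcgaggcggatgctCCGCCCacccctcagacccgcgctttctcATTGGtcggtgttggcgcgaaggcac

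The Suz12 window held 1 TTTCCCGC, at positions -219 to -212 from the start, 3 GGGCGG and 1 CCAAT, while the Eed window held none of the motifs. The Rbbp4 window held 2 GGGCGG and 1 CCAAT. Of the windows not printed, Rbbp7 held 2 GGGCGG and 1 CCAAT, Ezh2 held 3 CCAAT and Ezh1 held none. Over all 32851 promoter windows of this length, TTTCCCGC was present in 0.895%, TTTGGCGC in 0.417%, GGGCGG in 32.7% and CCAAT in 33.8%. The windows also differed in CpG dinucleotides, in which many PRC2 target promoters are rich. Suz12 had 37 CpG (more than 97.8% of all windows), Rbbp7 had 34, Rbbp4 had 30 and Ezh2 had 23, whereas Ezh1 had 14 and Eed had 12 (more than 66.5%). A match is a description of these letters only.

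The members differed widely in abundance. Per kilobase of the longest coding GENCODE M21 transcript, the median day 0 level was 3659 normalised counts for Rbbp7, 2302 for Eed, 1840 for Suz12, 689 for Rbbp4 and 27.9 for Ezh1. The ranges of Eed (1778 to 3070) and Suz12 (1560 to 1972) overlapped at that day, and those of the other neighbours in this order did not. At day 4 Eed, with a median of 888, lay below Suz12 at 1333 without overlap and overlapped Rbbp4 at 730. At day 8 the order was again Rbbp7 (3813), Suz12 (1457), Eed (837), Rbbp4 (678) and Ezh1 (98.7), and no neighbours overlapped. Ezh2 had a median of 0 at each day.

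**Figure D1:**
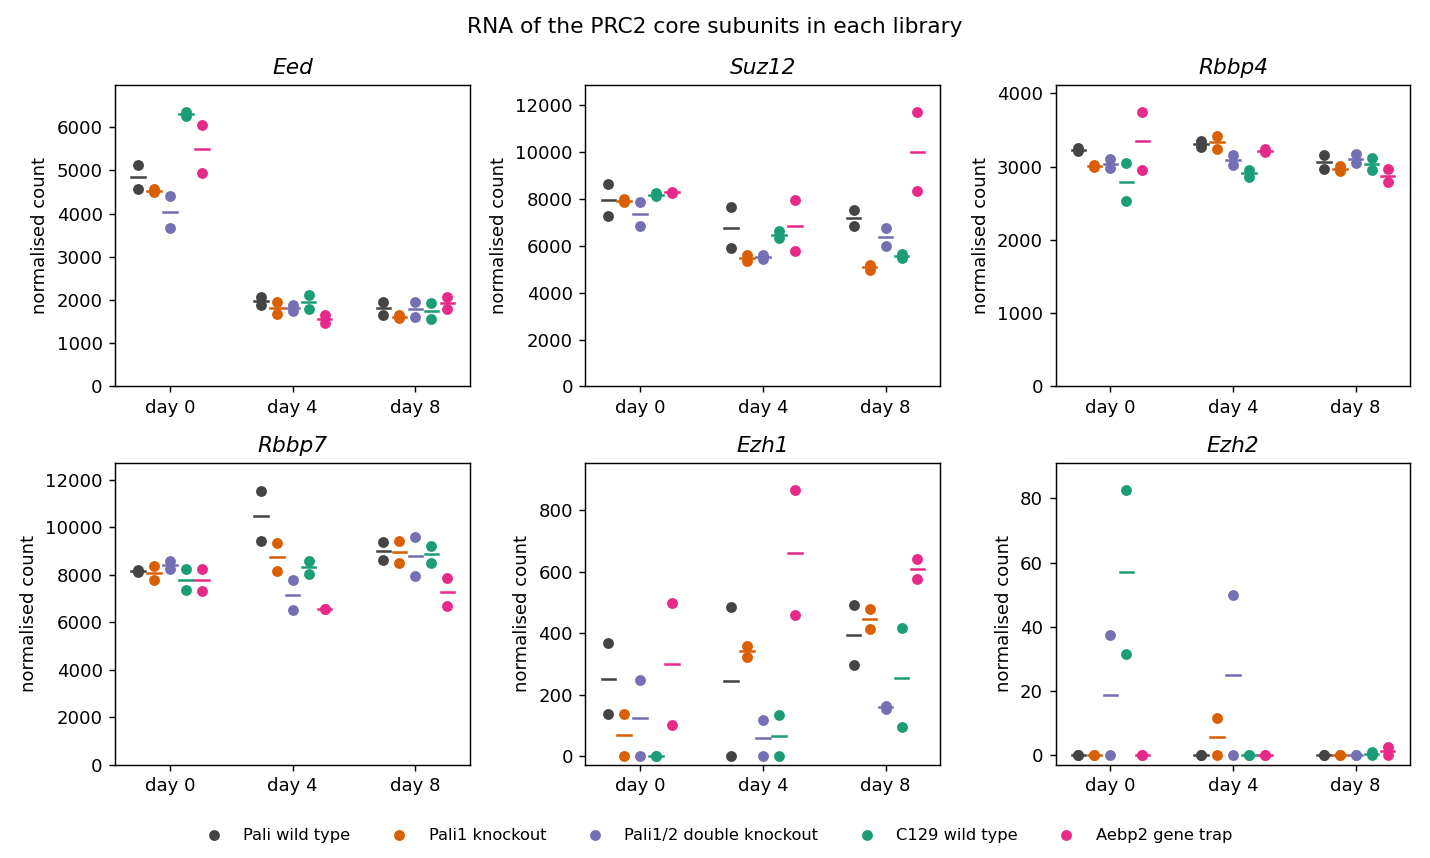
Normalised counts (linear axis) of the 6 core genes in each of the 30 libraries, by day, with colour for the line; points are libraries and short lines are means of 2. Eed fell from 3674 or more at day 0 to 2117 or less later in every line, Rbbp4 stayed between 2528 and 3742, Suz12 was highest in the gene trap at day 8, and Ezh1 and Ezh2 scattered down to 0.

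Eed (ENSMUSG00000030619, chr7:89954654-89980983, minus strand, 12 exons in its longest coding transcript) was the member with the clearest course. In Pali wild type it stood at 5132 and 4569 normalised counts at day 0, 1875 and 2081 at day 4, and 1965 and 1645 at day 8. In C129 wild type the values were 6345 and 6250, then 2117 and 1794, then 1930 and 1570. The gene trap began at 4946 and 6044 and reached 1642 and 1479 at day 4 and 2066 and 1798 at day 8. The fall was thus present by day 4 in these lines, with no overlap between day 0 and either later day.

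The Pali mutants followed the same course. Pali1-/- cells had 4565 and 4500 at day 0, 1683 and 1950 at day 4, and 1573 and 1662 at day 8. The double knockout had 4408 and 3674, then 1745 and 1884, then 1963 and 1618. Over all 30 libraries the lowest day 0 value, 3674, stood above the highest later value, 2117.

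Between day 0 and day 4 Eed fell by 1.29 on the log2 scale in Pali wild type (2.45-fold, SE 0.139, adjusted p = 2.50e-06) and by 1.69 in C129 wild type (3.23-fold, adjusted p = 1.495e-07). It fell by 1.32 in Pali1-/- (adjusted p = 1.68e-06), by 1.15 in the double knockout (adjusted p = 1.19e-05) and by 1.81 in the gene trap (adjusted p = 4.13e-08). From day 0 to day 8 the changes were -1.43 in Pali wild type (95% interval -1.72 to -1.13), -1.48 in Pali1-/-, -1.17 in the double knockout and -1.85 in C129 wild type, and the gene trap was 2.83-fold lower. The comparisons to day 4 and to day 8 share the day 0 libraries of their line. Without the 2 libraries of crossed description the double knockout changes were -0.96 at day 4 (adjusted p = 0.00499) and -1.04 at day 8 (adjusted p = 0.000587). All 10 of these comparisons were called, and each call was kept in each of its 40 refits with another setting or with a library left out. Most refits left out 1 library outside the comparison, which leaves the change as it was. Among all tested genes 3.67% fell further than Eed in Pali wild type from day 0 to day 8, and between 3.67 and 8.16% did so over the 10 comparisons.

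From day 4 to day 8 Eed was called in no line. The changes ran from -0.16 in Pali1-/- and C129 wild type to 0.31 in the gene trap (adjusted p = 0.203), where both day 8 libraries lay above both day 4 libraries. Suz12 in the gene trap was the 1 member called over this interval. Over the same interval 2.81% of all tested genes were called in Pali wild type, 14.5% in Pali1-/-, 7.95% in the double knockout, 30.8% in C129 wild type and 8.00% in the gene trap.

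Counted over all members, the day 4 against day 0 comparisons gave 2 of 5 tested members in Pali wild type (Eed lower, Rbbp7 higher; 27.3% of all genes were called), and 2 of 5 in Pali1-/- (Eed and Suz12 lower; 30.5%). They gave Eed alone in the double knockout (1 of 6; 27.5%), C129 wild type (1 of 4; 29.1%) and the gene trap (1 of 5; 30.6%). At day 8 against day 0, Eed was again the called member in Pali wild type (1 of 5; 25.8%), the double knockout (1 of 5; 30.9%) and the gene trap (1 of 5; 31.3%). Eed and Suz12 were called in Pali1-/- (2 of 5; 42.1%), and Eed, Suz12 and Ezh2 in C129 wild type (3 of 5; 45.8%). A member was not tested where it was listed at 0 in a whole group. Several of these shares of members were near the share of all genes, so that the count alone does not set the core genes apart.

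**Figure D2:**
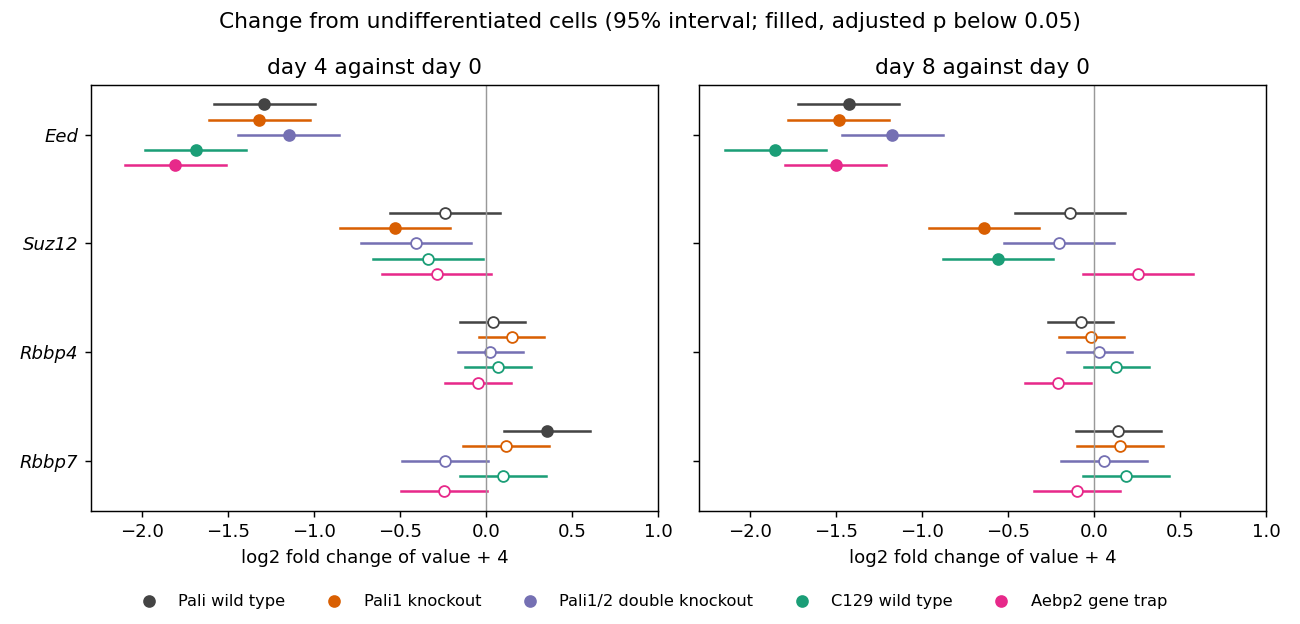
Log2 fold change of value + 4 from day 0 to day 4 (left) and to day 8 (right) for the 4 members measured above 0 in every library, with colour for the line, bars for the 95% interval and filled points for adjusted p below 0.05. The 10 Eed points lie between -1.85 and -1.15, whereas those of Rbbp4 lie between -0.21 and 0.15.

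Other genes moved beside Eed. The neighbouring gene Hikeshi, which encodes a nuclear import carrier for Hsp70 and lies on the same strand with its lower coordinate 37.1 kb before that of Eed, changed by -1.03 at day 4 in Pali wild type (adjusted p = 7.44e-05) and by -0.50 in C129 wild type (adjusted p = 0.02003). Its day 8 changes were -0.998 and -1.45, both called. Neighbours were chosen after values were seen. Picalm, on the other side, changed by 0.05 or less and was not called in the same 4 comparisons. Over the 15 group means the genes whose pattern was most like Eed were Gle1, an mRNA export factor (Pearson r = 0.983), Sod2, the mitochondrial superoxide dismutase (0.982), and Lap3, an aminopeptidase (0.981), out of 10110 genes compared. These correlations are across groups that share the same course and carry no test.

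Pluripotency markers fell over the same interval. Of 12 such genes, 11 fell and 0 rose in Pali wild type at day 4 (median change -1.42, against 0.02 over all genes), and 9 fell and 1 rose in C129 wild type. Their summed level ran from 90244 to 141710 normalised counts at day 0, from 33498 to 68525 at day 4 and from 19525 to 75696 at day 8, with none of the 12 at 0 in any library. Of 28 replication and cell cycle genes, 7 fell and 0 rose in Pali wild type at day 4 and 15 fell and 1 rose in C129 wild type (medians -0.19 and -0.29). Of all tested genes 27.3 and 29.1% were called in these comparisons, so the Pali wild type count was near the background. The part of these changes in the fall of Eed was not tested, and in bulk RNA fewer cells of a type cannot be told apart from less RNA per cell.

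No mutant changed Eed detectably. Over the 9 comparisons of a mutant with its wild type the log2 change ran from -0.32 to 0.15 and 0 were called by limma, with an unadjusted p below 0.05 in 1 (the gene trap at day 4, -0.32, adjusted p = 0.171). Each estimate had a 95% interval of 0.29 to either side, so smaller differences were not resolved. The double knockout at day 0 held the lowest day 0 library and differed by -0.27 (adjusted p = 0.400), or by -0.40 (adjusted p = 0.366) without the libraries of crossed description. At that day the summed level of 5 primed epiblast markers was 19008 and 16105, against 5565 to 11417 in the other day 0 libraries. Other lists also stood apart, with pluripotency markers at 94706 and 90244 against 106020 to 141710. Fibroblast markers were at 1635 and 1343 against 64.1 to 437, and neuroectoderm markers at 6421 and 6519 against 3532 to 5808.5. The trophoblast, mesoderm and endoderm lists overlapped the other day 0 libraries. The part of these differences in the Eed value was not tested. C129 wild type stood above Pali wild type at day 0 in both libraries (6345 and 6250 against 5132 and 4569), a difference of 0.38 (adjusted p = 0.0630) that was called only with upper-quartile rescaling (0.47, adjusted p = 0.0179).

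Suz12 (ENSMUSG00000017548, chr11:79993106-80034123, plus strand, 16 exons) did not share one course. In Pali wild type it stood at 8622 and 7268 normalised counts at day 0, 7635 and 5892 at day 4, and 7512 and 6862 at day 8, with overlapping ranges and no call. In C129 wild type it stood at 8103 and 8266, then 6617 and 6331, then 5492 and 5632. The C129 values stepped down without overlap, and the day 8 against day 0 change of -0.56 was called (SE 0.152, adjusted p = 0.00575).

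Pali1-/- stood at 7990 and 7870, then 5362 and 5624, then 4974 and 5193, which included the lowest value of the 30 libraries. It fell by 0.53 at day 4 (adjusted p = 0.0126) and by 0.64 at day 8 (adjusted p = 0.00232) against day 0. The day 4 call was lost without day 0 replicate 1 (-0.52, adjusted p = 0.0629), day 0 replicate 2 (-0.54, 0.0525) or day 4 replicate 1 (-0.495, 0.0791), with changes of about the same size.

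The gene trap stood at 8255 and 8312 at day 0, 7962 and 5765 at day 4, and 11691 and 8351 at day 8. Its day 8 libraries were the highest and the third highest of all 30. It rose by 0.54 from day 4 to day 8 (adjusted p = 0.0339). That call was lost without day 4 replicate 2 (0.31, adjusted p = 0.394) or day 8 replicate 1 (0.30, adjusted p = 0.375). With the change unaltered, it was also lost without trend and robust estimation (adjusted p = 0.0546) and with only the libraries of the same parent in the fit (0.141).

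The double knockout lay between Pali1-/- and Pali wild type at day 8. It stood at 7853 and 6823 at day 0, 5600 and 5426 at day 4, and 6753 and 5990 at day 8. Its day 4 change of -0.41 was not called (adjusted p = 0.0535) but was with some other settings, such as TMM rescaling (adjusted p = 0.0343). Without the libraries of crossed description it was -0.33 (adjusted p = 0.390).

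Against its own wild type, Suz12 was higher in the gene trap at day 8 by 0.83 (1.78-fold, 95% interval 0.51 to 1.15, adjusted p = 0.000777), and this call was kept in all 40 refits, over which the change ran from 0.59 to 1.07. At day 0 and day 4 the trap differed from C129 wild type by 0.02 and 0.07. The day 8 minus day 0 course of the trap exceeded that of C129 wild type by 0.81 (SE 0.214, adjusted p = 0.0161). Without the high library, day 8 replicate 1 of the trap, this difference was 0.57 (adjusted p = 0.103). With only the libraries of the same parent in the fit it was 0.81 with an adjusted p of 0.0849.

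In Pali1-/- at day 8 Suz12 was lower than in Pali wild type by 0.50 (1.41-fold, 95% interval -0.82 to -0.18, adjusted p = 0.0359). It did not survive the removal of any of the 4 libraries compared. The adjusted p was 0.179 and 0.0859 on leaving out replicate 1 or 2 of Pali wild type, and 0.147 and 0.123 on leaving out those of Pali1-/-, with changes between -0.56 and -0.43. It was also lost without trend and robust estimation (adjusted p = 0.0561). The double knockout, compared with the same Pali wild type libraries, differed by -0.17 at day 8 (adjusted p = 0.570), and its difference from Pali1-/- was 0.32 (adjusted p = 0.404). The Pali1-/- course fell further than that of Pali wild type by 0.50 (adjusted p = 0.193), which was not called.

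Pluripotency markers stood apart in the same comparisons. At day 8 their summed level was 73477 and 67190 in the gene trap against 26892 and 19525 in C129 wild type, and 10 of 12 were higher (median 1.59). It was 36749 and 31198 in Pali1-/-, 44429 and 41310 in the double knockout and 75696 and 62953 in Pali wild type, with 8 of 12 lower in Pali1-/- (median -1.18) and 7 of 12 in the double knockout (-0.81). Neuroectoderm markers went the other way, with 5 of 8 lower in the trap and 4 of 8 higher in Pali1-/-. Of all genes 20.1% were called in the trap at day 8, 13.6% in Pali1-/- and 7.21% in the double knockout, in either direction. Eed differed by 0.15 in the trap and by -0.15 in Pali1-/- at that day and was called in neither. The part of the cell makeup in the Suz12 values was not tested.

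**Figure D3:**
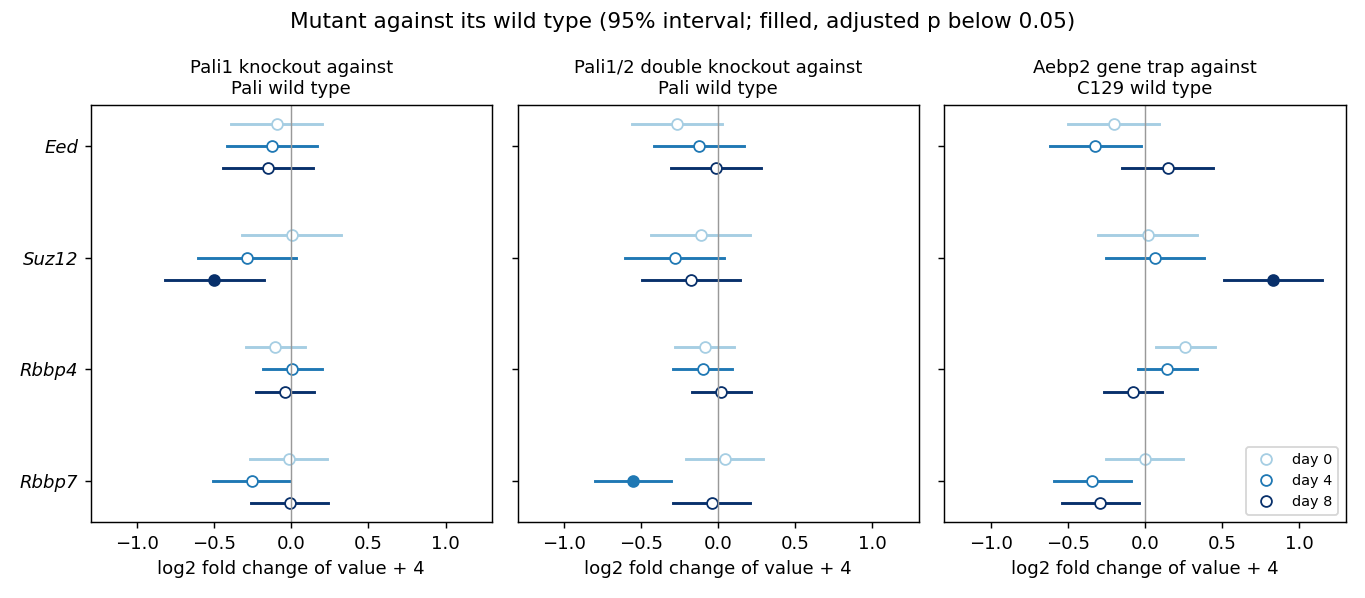
Log2 fold change of value + 4 of each mutant against its wild type for the 4 members measured above 0 in every library, with shade for the day, bars for the 95% interval and filled points for adjusted p below 0.05. The filled points are Suz12 in Pali1-/- (-0.50) and in the gene trap (0.83) at day 8 and Rbbp7 in the double knockout at day 4 (-0.55).

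Some neighbours of Suz12 on chromosome 11 differed in the same direction at day 8. The gene with the most similar pattern over the 15 group means was Crlf3 (Pearson r = 0.948), whose lower coordinate lies 53.4 kb from that of Suz12, and the third was Adap2 (0.925), at 161 kb, with Ptpn6, a phosphatase gene on another chromosome, between them (0.928). Crlf3 stood at 2818 and 2398 normalised counts in the trap at day 8 against 1220 and 1227 in C129 wild type, a rise of 1.08 (adjusted p = 8.37e-07). It stood at 1169 and 1178 in Pali1-/- against 1888 and 1741 in Pali wild type, and was lower there by 0.63 (adjusted p = 0.000267).

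Other tested genes near Suz12 were those with a lower coordinate within 0.25 Mb of its own and a mean of at least 50. This window was chosen after values were seen. Of these 7 genes, 4 were called higher in the trap at day 8, where 20.1% of all genes were called. They were Crlf3, Tefm (1.07), Adap2 (1.495) and Rnf135 (1.65). At day 0, when Suz12 differed by 0.02, 1 of the 7 was already called higher in the trap (13.0% of all genes). This was Crlf3 (0.44, adjusted p = 0.00410), while Adap2 (0.61) and Rnf135 (0.80) were not called. At day 4 the count was 0 (9.01%). In Pali1-/- at day 8, 3 were called lower (13.6% of all genes were called): Crlf3, Adap2 (-1.32) and Rnf135 (-1.31). In the double knockout at day 8 Crlf3 (-0.35) and Rnf135 (-1.07) were called lower (7.21% of all genes were called), while Suz12 was not. Utp6, Atad5 and Rhot1 were called in none of these comparisons. Adap2 is a low value gene, at 130.8 and 98.3 in the trap and 37.8 and 37.5 in C129 wild type.

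Median changes by chromosome were taken over the tested genes with a mean of at least 50. That of chromosome 11 in the trap was 0.16 at day 0, 0.11 at day 4 and 0.12 at day 8. The medians of the other 19 chromosomes at day 8 ran from -0.10 to 0.04. At day 0 and day 4 chromosome 6 was as high, at 0.16 and 0.17. The chromosome 11 shift in the trap was present at day 0, when Suz12 differed by 0.02. In Pali1-/- at day 8 the chromosome 11 median was -0.037, and the other 19 ran from -0.035 to 0.074. In the double knockout at day 8 it was -0.005, against -0.041 to 0.117 in the other 19. A cause of the shared movement was not tested.

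**Figure D4:**
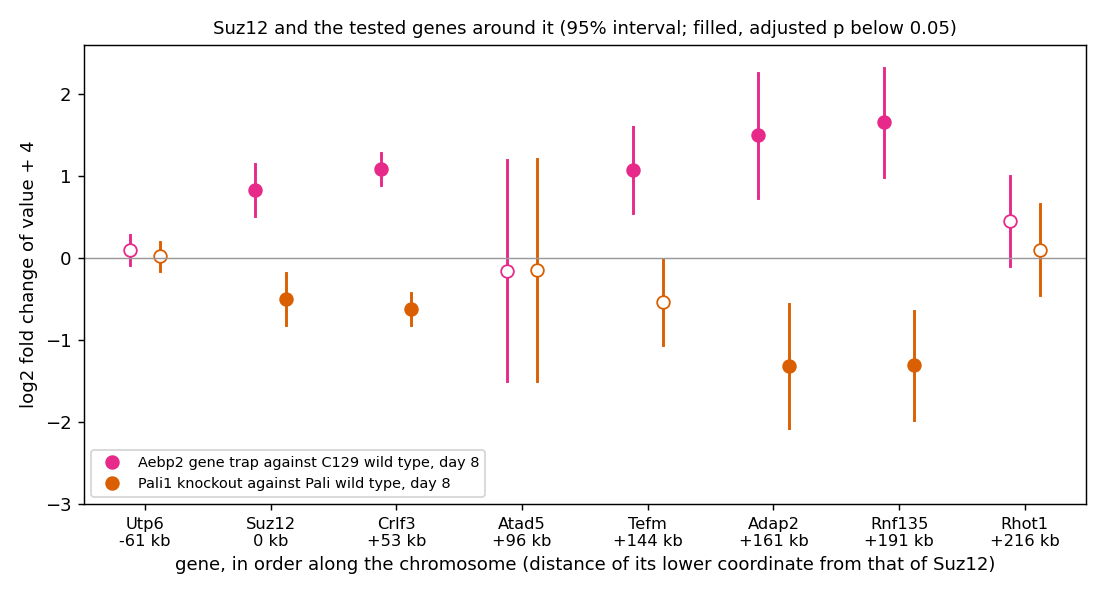
Log2 fold change of value + 4 at day 8 for Suz12 and 7 tested neighbours, in order along the chromosome with the distance of each lower coordinate from that of Suz12, for the gene trap against C129 wild type and Pali1-/- against Pali wild type; bars are 95% intervals and filled points have adjusted p below 0.05. Crlf3, Adap2 and Rnf135 lie above 0 in the trap and below 0 in Pali1-/-, as does Suz12, and Utp6 lies near 0 in both.

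Because Eed fell and Suz12 fell less or not at all, the balance of their RNAs changed. The ratio of Eed to Suz12 normalised counts ran from 0.539 to 0.783 at day 0, from 0.206 to 0.353 at day 4 and from 0.177 to 0.351 at day 8, with no overlap between day 0 and the later days. The ratio of Rbbp7 to Rbbp4 ran from 2.20 to 2.90 at day 0 and overlapped that range at both later days. Over the 15 group means Eed and Suz12 had a Pearson r of 0.61, and the other 5 pairs of the 4 members ran from -0.32 to 0.19. These describe groups of shared lines and days and carry no test.

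Rbbp7 (ENSMUSG00000031353, chrX:162760402-162779092, plus strand, 12 exons) was the most abundant member per kilobase. At day 0 its 10 libraries lay between 7317 and 8577 normalised counts. At day 4 they spread out: Pali wild type stood at 9411 and 11533, Pali1-/- at 8164 and 9327, the double knockout at 6503 and 7760, C129 wild type at 8020 and 8581 and the gene trap at 6543 and 6544. Pali wild type was thus highest and the double knockout and the trap lowest. At day 8 the range was 6673 to 9591, again with the lowest value in the trap.

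In the double knockout at day 4 Rbbp7 was lower than in Pali wild type by 0.55 (95% interval -0.80 to -0.30, adjusted p = 0.0237). Leaving out replicate 2 of Pali wild type ended this call (-0.41, adjusted p = 0.165), as did leaving out replicate 1 of the double knockout, whose description is crossed (-0.42, adjusted p = 0.188). It was also lost with both crossed libraries left out (adjusted p = 0.205). In the same comparison 5 of 12 pluripotency markers were lower and 0 higher (median -0.85), while 2.07% of all genes were called. The part of these markers in the result was not tested. The double knockout and Pali1-/- differed by -0.30 at that day (adjusted p = 0.285), or by -0.17 (adjusted p = 0.783) without the libraries of crossed description. Within Pali wild type Rbbp7 rose by 0.35 from day 0 to day 4 (adjusted p = 0.0336), a call lost in 6 of 40 refits, with changes from 0.21 to 0.50 over the refits; without day 4 replicate 2 the rise was 0.21 (adjusted p = 0.319).

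The gene trap was lower than C129 wild type in Rbbp7 by 0.34 at day 4 (adjusted p = 0.0817) and by 0.29 at day 8 (adjusted p = 0.0977), neither of which was called. Txlng, which lies on the opposite strand and overlaps the end of Rbbp7, differed in the double knockout at day 4 by -0.40 (adjusted p = 0.0604). The sources used here do not say whether counting used strand, so reads of the overlap cannot be assigned. Syap1 and Ctps2, the next genes, differed by 0.07 and -0.06.

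Rbbp4 (ENSMUSG00000057236, chr4:129307100-129335370, minus strand, 12 exons) had the narrowest range of the members. Its values lay between 2528, in C129 wild type at day 0, and 3742, in the gene trap at day 0, a ratio of 1.48 over all 30 libraries. The medians were 3038 at day 0, 3217 at day 4 and 2989 at day 8. It was called in none of the 38 comparisons by limma, and 4 had an unadjusted p below 0.05.

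The changes of Rbbp4 over time ran from -0.21 to 0.15 on the log2 scale, each with a 95% interval of 0.19 to either side. Some depended on 1 day 0 library. From day 0 to day 8 the trap changed by -0.38 without its day 0 replicate 1, against -0.21 with it. C129 wild type changed by 0.27 without its day 0 replicate 2, against 0.13 with it. The gene trap at day 0, with 2962 and 3742, differed from C129 wild type, with 2528 and 3051, by 0.26 (adjusted p = 0.0672), and the 2 pairs overlapped. That difference was called when C129 wild type replicate 2 (0.40, adjusted p = 0.0177) or trap replicate 1 (0.43, adjusted p = 0.00551) was left out. The genes most like Rbbp4 over the 15 groups were Snrpd1, Gcc1 and Ing2 (Pearson r from 0.793 to 0.822) and those most like Rbbp7 were Ireb2, Ep300 and Hif1an (0.766 to 0.805), lower than for Eed or Suz12.

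The methyltransferase genes were measured poorly. Ezh1 (ENSMUSG00000006920, chr11:101191115-101226463, minus strand, 21 exons), the form known from slowly dividing and differentiated cells, was listed at 0 in 7 of 30 libraries. At day 0 Pali wild type stood at 367 and 136, Pali1-/- at 135 and 0, the double knockout at 0 and 248, C129 wild type at 0 and 0 and the gene trap at 500 and 99.9. At day 4 the same lines stood at 0 and 485, 359 and 322, 0 and 118, 0 and 132, and 458 and 867. At day 8 they stood at 296 and 491, 480 and 413, 153 and 164, 417 and 92.5, and 576 and 643.

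Duplicates of Ezh1 thus often disagreed, as where Pali wild type at day 4 held 0 and 485. The gene trap held the highest library at each day. The median over libraries was 118 at day 0, 227 at day 4 and 415 at day 8, with overlapping ranges. In the 30 comparisons where it could be tested Ezh1 was called in 0 by limma, with an unadjusted p below 0.05 in 1, the trap against C129 wild type at day 4 (adjusted p = 0.217). The 95% interval of a difference between groups was 4.75 log2 units to either side, so these data could not show a change of Ezh1 of ordinary size.

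All 23 values of Ezh1 above 0 came out as whole reads, within 0.02 of the value of 1 read, and 5 of the 23 libraries gave 441 or 442 reads, a recurrence chosen after values were seen. Eed, Rbbp4 and Rbbp7 were whole reads in all 30 libraries, and Suz12 in 1. The sources used here do not say how reads shared by several transcripts or genes were divided. Rbbp4 and Rbbp7, and Ezh1 and Ezh2, are related in sequence, and reads shared between them were not examined.

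Ezh2 (ENSMUSG00000029687, chr6:47530139-47595341, minus strand, 20 exons), the methyltransferase known as the main form in dividing stem cells, was listed at 0 in 23 of 30 libraries. The values above 0 were 37.5 at day 0 and 50.0 at day 4 in double knockout replicate 1, 11.4 in Pali1-/- at day 4, 31.5 and 82.7 in C129 wild type at day 0, 0.873 (1 read) in C129 wild type at day 8 and 2.39 (3 reads) in the gene trap at day 8. Both double knockout values came from the libraries with crossed descriptions. Pali wild type was listed at 0 in all 6 libraries.

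An exact 0 can be a failed estimate, and Ezh2 values here are not taken as levels. The test called Ezh2 lower in C129 wild type at day 8 than at day 0 (adjusted p = 0.00509), but this compares 31.5 and 82.7 with 0 and 1 read, and no fold is given. Without day 0 replicate 2 the call was lost (adjusted p = 0.0590). Among 11582 genes that reached 100 in some library, 1753 were listed at 0 in at least 1 library and 110 in at least 20. The pattern of zeros was thus not restricted to Ezh1 and Ezh2.

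Taking all members together, 3 of 45 tests of a mutant against its wild type were called, with an unadjusted p below 0.05 in 9. For Pali1-/- the called members were 0 of 5 at day 0 (4.79% of all genes), 0 of 5 at day 4 (2.67%) and 1 of 5 at day 8 (13.6%). For the double knockout they were 0 of 5 (3.67%), 1 of 5 (2.07%) and 0 of 5 (7.21%). For the gene trap they were 0 of 4 (13.0%), 0 of 5 (9.01%) and 1 of 6 (20.1%). With 4 to 6 members tested, these counts do not set the core genes apart from the background.

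The double knockout and Pali1-/- differed in 0 of 16 member tests by limma, with an unadjusted p below 0.05 in 2, while 3.07, 1.38 and 1.37% of all genes were called at day 0, 4 and 8. C129 and Pali wild type differed in 0 of 14, with an unadjusted p below 0.05 in 4, while 21.1, 15.9 and 17.3% of all genes were called. Of 36 tests of a difference between courses, 1 was called, that of Suz12 in the gene trap to day 8 (15.3% of all genes), with an unadjusted p below 0.05 in 5. In the other 7 course comparisons no member was called: to day 4 the background was 0.426% for Pali1-/-, 0.477% for the double knockout, 1.03% for the trap and 8.99% for C129 against Pali wild type, and to day 8 it was 5.73% for Pali1-/-, 1.12% for the double knockout and 14.2% for C129 against Pali wild type.

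Accessory subunits direct PRC2 to chromatin and set its variants. Of 9 listed genes 8 had a row, and Ezhip was not analysed here. Epop, Jarid2 and Mtf2 fell from day 0 in both wild type lines. Epop, a subunit of the variant built on Polycomb-like proteins, went from 3008 and 3410 to 887 and 936 at day 4 in Pali wild type (-1.81, adjusted p = 1.92e-07) and from 5004 and 6242 to 1595 and 1079 in C129 wild type (-2.09, adjusted p = 5.22e-08). Eed changed by -1.29 and -1.69 in the same comparisons.

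Jarid2, a DNA-binding partner of the other main variant, changed by -0.93 and -0.57 at day 4 in Pali and C129 wild type, and Mtf2, a Polycomb-like protein that binds CpG islands, by -0.64 and -1.06, all 4 called. In C129 wild type Lcorl rose by 0.61 at day 4 and 0.78 at day 8, and Phf1, another Polycomb-like protein, rose by 0.58 at day 8. Kdm6a, a demethylase that removes the mark, changed from day 0 to day 8 by -1.02 in Pali (adjusted p = 0.0431) and -1.14 in C129 wild type (adjusted p = 0.0143). Kdm6b was not analysed here.

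In the mutants the accessory list gave 0 of 8 calls in each of the 6 Pali comparisons, where 2.07 to 13.6% of all genes were called. Mtf2 changed by -0.52, -0.63 and -0.52 in Pali1-/- at day 0, 4 and 8. In the double knockout it changed by -0.40, -0.67 and -0.004, and its lowest adjusted p over the Pali comparisons was 0.0998. In the gene trap at day 8 Mtf2, at 2056 and 1643 against 741 and 838 in C129 wild type, was higher by 1.22 (adjusted p = 0.000333), and Jarid2 was higher by 0.70 (adjusted p = 0.00670). Suz12 was higher in the same comparison, as given above, and so were 10 of 12 pluripotency markers, while 20.1% of all genes were called. Epop was lower in the trap at day 0 by 0.52 (adjusted p = 0.0342), and Aebp2 itself changed by -6.20, -5.56 and -5.59 at day 0, 4 and 8.

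The partners of Rbbp4 and Rbbp7 in NuRD, Sin3, CAF-1 and NURF were also counted. Of 22 tested genes, 1 rose and 2 fell from day 0 to day 4 in Pali wild type (27.3% of all genes were called) and 1 rose and 2 fell to day 8 (25.8%). In C129 wild type 3 rose and 3 fell to day 4 (29.1% of all genes), and 4 rose and 5 fell to day 8 (45.8%). The C129 shares were near those of all genes, whereas the Pali wild type shares lay below those of all genes. The median change in these comparisons lay between -0.08 and 0.06. Smarca5, a chromatin remodelling ATPase, changed by -0.43 in Pali (adjusted p = 0.00126) and by -0.74 in C129 wild type at day 8. Sap30, a Sin3 subunit, changed by -0.44 and -0.64, and all 4 changes were called.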

How the data were processed

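Libraries were strand-marked and rRNA-depleted, per the labels' protocols. The authors deposited 1 table of normalised counts, a non-negative signal for each gene in each library, which was used as it stands. DESeq2, HISAT2 2.0.5, the mm10 build and kallisto 0.43.1 are listed, with no roles, per the submitters' processing notes. Low values were whole multiples of 1 read, within 0.02 of a step, for 85.7 to 89.5% of values per library, too few for a count model.

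The 15712 genes that reached 10 normalised counts in 2 or more libraries entered the test as log2(value + 4), which understates the change of low genes, with limma 3.58.1 in R 4.3.3: 15 group means, 15 residual degrees of freedom, variance moderation by trend and robust estimation, and Benjamini-Hochberg adjustment over all genes within each of 38 contrasts at a threshold of 0.05. The script was tested on simulated data. Intervals are 95%. Named genes beside the members were those of the PRC2 accessory and demethylase lists called in a mutant or wild type time contrast, up to 3 of each other list with the lowest adjusted p from day 0 to day 8 in a wild type line, and the 3 most correlated genes of each member; only those bearing on the members are printed. The members, lists and tests were chosen with earlier results of these data known. Alternatives were other pseudocounts, filters and scalings, moderation without trend and robust estimation, a replicate block, each parent alone and each library left out. Leaving out the crossed libraries was chosen after seeing the data. Positions are GENCODE M21 and promoters RefSeq, read in Python 3.11.15 with pandas 2.3.3.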

Additional observations from a re-analysis of the deposited data

Results flagged for a closer look

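The course of Suz12 differed between the Aebp2 gene trap and C129 wild type. From day 0 to day 8 the trap changed by 0.25 and C129 wild type by -0.56 on the log2 scale, and the difference of 0.81 passed the test of the difference itself (limma, adjusted p = 0.0161, 15.3% of all genes called). Both trap libraries at day 8 stood above both C129 libraries. The neighbours Crlf3, Tefm, Adap2 and Rnf135 and 10 of 12 pluripotency markers were also higher in the trap at that day. At day 8, 20.1% of all genes were called between the trap and C129 wild type. Crlf3 was already called higher at day 0. The part of these genes in the result was not tested.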

How the results depend on the processing

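Over the refits all 400 Eed results, 266 of 280 Suz12, 71 of 80 Rbbp7 and 38 of 39 Ezh2 results kept their call, and 0 of them reversed. Most refits left out 1 library outside the comparison, which leaves the change as it was, so these totals overstate how firm a call is. Suz12 in Pali1-/- against Pali wild type at day 8 kept its call in 35 of 40 refits, yet lost it on the removal of any library compared. Calls in C129 against Pali wild type went from 0 to 1 with upper-quartile rescaling (Eed at day 0) and to 1 with the replicate block (Rbbp7 at day 4, adjusted p = 0.0467), and ranged from 0 to 1 with a library left out (1 without Pali wild type day 4 replicate 1, C129 day 0 replicate 2 or either trap day 0 library). Calls in differences of courses went from 1 to 0 with only the libraries of the same parent, and ranged from 0 to 2 with a library left out (2 without C129 day 0 replicate 2 or trap day 0 replicate 1, when Rbbp4 was also called, and 0 without trap day 8 replicate 1). Counts of calls of a mutant against its wild type, over time and between the Pali mutants stayed within 1.5 times under every alternative run. Same-numbered libraries deviated together with correlations of -0.08 to 0.11 over 105 pairs of groups, above 0.1 in 1, so the numbers were not used as pairs. With the replicate block 3 mutant and 17 time calls were made, against 3 and 16, the added call being Suz12 in the double knockout at day 4 (adjusted p = 0.0224). The zeros of Ezh1 and Ezh2, which stand beside values of many reads in duplicates, limit what can be said of both, and their cause was not tested. With 2 libraries a group, the spread rests on the pooled estimate.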
